A study of Homo sapiens with 12 samples.

Results

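The 10 genes described here are the EGF receptor EGFR, its relatives ERBB2 and ERBB3, the ligands AREG, EREG, HBEGF, TGFA, NRG1 and BTC, and the receptor inhibitor ERRFI1. They were taken by symbol from the 56609 symbols of the deposited count table, and all 10 were found. All 10 also passed the filter on low counts, which left 21698 genes for testing. The genes were measured by RNA sequencing in A375, an established BRAF-mutant human melanoma cell line, in 4 groups of 3 libraries. Wild-type cells were kept for 48 h with DMSO or with 500 nM JQ1, an inhibitor that displaces BET bromodomain proteins from acetylated chromatin. Cells in which CRISPR/Cas9 had been used to knock out MAPKAPK2, the gene of the stress kinase MK2, received the same DMSO or JQ1 treatment. The sample titles call the DMSO cultures untreated; the treatment field was followed. Whether the knockout cells are 1 clone or a pool is not given in the sources used here. The labels also do not say whether replicates were separate cultures, so p-values measure the spread between these libraries, which may be technical. The study's question was how losing MAPKAPK2 makes cells more resistant to BET inhibition.

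Receptors of the EGF family are tyrosine kinases that signal as pairs. EGFR binds AREG, TGFA, HBEGF, EREG and BTC, ERBB3 binds neuregulins and has a nearly inactive kinase domain, and ERBB2 has no known ligand and serves as a partner for the others. Ligands are made as membrane-anchored precursors and are released by ADAM proteases, and ERRFI1 (also called MIG6) binds the kinase domain of active EGFR and blocks it. In BRAF-mutant melanoma, signalling through EGFR and ERBB3 is known as a route by which cells tolerate inhibitors of BRAF.

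Depth ran from 25316899 to 34594295 estimated counts per library. MAPKAPK2 lay between 87.9 and 119.7 CPM (estimated counts scaled to a common library size, with TMM factors) in the wild-type libraries and between 11.1 and 15.7 CPM in the knockout libraries, as the labels say. Knockout JQ1 replicate 3 stood apart from its group: its chi-square per degree of freedom against replicates 1 and 2 was 23.8 and 25.1, while the other replicate pairs of the study lay between 3.21 and 7.05. The fold changes of the 10 genes that involve its group are therefore also given without it; values of single list genes are with it. Of the 10 melanocyte markers listed, SOX10 (389 to 687 CPM), MITF, S100B, S100A1 and PAX3 were expressed in all libraries, whereas PMEL and MLANA reached at most 1.45 CPM and TYR, TYRP1 and DCT at most 0.456 CPM. CDH1, an epithelial marker, and MS4A1, a B cell marker, were at 0 in all 12 libraries. The summed epithelial markers lay between 3.94 and 13.5 CPM, the fibroblast markers between 9.85 and 23.9 CPM, the leukocyte markers between 10.8 and 20.5 CPM and the endothelial markers between 4.26 and 13.4 CPM. Each of these 4 sums was lower in every knockout JQ1 library than in every wild-type JQ1 library. In DMSO the epithelial, fibroblast and endothelial sums were likewise lower in all knockout libraries, and the leukocyte sums overlapped. With JQ1 the epithelial and fibroblast sums were lower in all libraries of both genotypes, as were the leukocyte sums in knockout, while the endothelial sums were higher in all knockout JQ1 than knockout DMSO libraries. Each sum rests mainly on few genes: CLDN4 (mean 7.47 CPM), PDGFRA (7.14) with PDGFRB (6.11), CD68 (13.3) and KDR (7.33), in this order of lists. Other markers did not always move with the sum. For knockout against wild type in JQ1, the tested markers had median log2 fold changes of -1.37 (epithelial), 0.27 (fibroblast), 0.12 (leukocyte) and -0.34 (endothelial). The part of these markers in the results was not tested.

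Promoter sequence is shown for 5 members whose levels are compared below: HBEGF, whose RNA rose with JQ1, AREG and EREG, neighbouring ligand genes of which AREG passed the test in the knockout, and ERRFI1 and EGFR. Each line holds up to 250 bases before the RefSeq start (GRCh38.p14), 5′ to 3′ on the gene's strand, without bases that a GENCODE 29 exon of the gene covers. Capitals mark matches on both strands to 4 short motifs. The TATA box was searched as TATAAA. The cAMP response element was searched as TGACGTCA. The AP-1 site was searched as TGANTCA. The GC box was searched as GGGCGG.
HBEGF (chr5:140346632-140346853, - strand): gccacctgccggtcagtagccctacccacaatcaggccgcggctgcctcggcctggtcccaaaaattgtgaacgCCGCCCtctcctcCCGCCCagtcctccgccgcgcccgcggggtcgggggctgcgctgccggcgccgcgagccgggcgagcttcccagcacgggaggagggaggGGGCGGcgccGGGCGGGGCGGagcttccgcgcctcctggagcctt
AREG (chr4:74444886-74445133, + strand): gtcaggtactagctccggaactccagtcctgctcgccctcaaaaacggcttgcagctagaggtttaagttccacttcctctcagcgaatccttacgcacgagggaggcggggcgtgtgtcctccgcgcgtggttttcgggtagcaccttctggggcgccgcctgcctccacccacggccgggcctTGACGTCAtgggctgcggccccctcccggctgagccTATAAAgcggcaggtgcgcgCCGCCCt
EREG (chr4:74364895-74365142, + strand): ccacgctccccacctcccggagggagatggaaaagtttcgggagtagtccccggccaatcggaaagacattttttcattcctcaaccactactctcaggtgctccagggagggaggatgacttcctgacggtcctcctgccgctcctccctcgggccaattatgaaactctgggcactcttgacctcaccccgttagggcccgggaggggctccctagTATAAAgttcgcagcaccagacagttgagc
ERRFI1 (chr1:8026310-8026559, - strand): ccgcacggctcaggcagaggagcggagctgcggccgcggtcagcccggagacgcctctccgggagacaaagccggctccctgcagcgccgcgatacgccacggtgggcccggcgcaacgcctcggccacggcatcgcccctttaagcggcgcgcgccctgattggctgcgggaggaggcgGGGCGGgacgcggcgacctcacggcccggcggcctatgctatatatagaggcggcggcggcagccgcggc
EGFR (chr7:55018767-55019016, + strand): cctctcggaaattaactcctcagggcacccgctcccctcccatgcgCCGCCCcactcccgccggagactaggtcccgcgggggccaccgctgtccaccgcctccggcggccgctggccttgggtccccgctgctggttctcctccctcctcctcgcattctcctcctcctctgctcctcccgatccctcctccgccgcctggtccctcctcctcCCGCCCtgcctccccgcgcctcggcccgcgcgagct

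The HBEGF window had 5 GC boxes and was 76.1% G and C. The AREG window held 1 TATA box, 1 cAMP response element and 1 GC box, and the EREG window held 1 TATA box and no GC box. The EGFR window shown held 2 GC boxes and the ERRFI1 window 1, and neither had a TATA box by this spelling. RefSeq gives EGFR a second start, whose window is not shown: it was 38.8% G and C and held 2 TATA boxes, 2 AP-1 sites and 0 GC boxes. Of 35116 RefSeq windows of 250 bases, 10.7% held the TATA box, 1.65% the cAMP response element, 6.57% the AP-1 site and 42.6% the GC box. No AP-1 site by this spelling was found in the 5 windows shown. RefSeq windows matched 8 of the 10 members. A match is a description of letters in these windows, not of a bound factor.

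The members lie on 8 chromosomes in the GENCODE 29 annotation of GRCh38: EGFR at chr7:55019021-55211628, ERBB2 at chr17:39687914-39730426, ERBB3 at chr12:56076799-56103505, HBEGF at chr5:140332843-140346631, TGFA at chr2:70447280-70554193 and ERRFI1 at chr1:8004404-8026308, with NRG1 on chromosome 8. EREG (chr4:74365143-74388751), AREG (chr4:74445134-74455009) and BTC (chr4:74744759-74794686) share a stretch of chromosome 4. The gap from EREG to AREG is 56.4 kb and holds 0 other protein-coding genes. Exons of EGFR, ERBB2 and ERRFI1 overlap antisense genes (EGFR-AS1, MIEN1 with PGAP3, and AL034417.4), and strand use in the counting is not stated, so their counts carry that uncertainty. EGFR-AS1 held 16 to 35 counts per library and AL034417.4 34 to 75, while MIEN1 held 790 to 1473 counts, against 923 to 2011 for ERBB2. ERBB3 shares exons with AC034102.2 on its own strand; that gene was at 0 counts in 9 of 12 libraries and at most at 47.

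Levels differ widely across the family. Per kilobase of the longest coding transcript in GENCODE, wild-type DMSO cells had 102.6 ± 0.760 CPM per kb of ERBB3, 83.3 ± 2.46 of TGFA, 69.9 ± 1.20 of ERRFI1, 11.4 ± 0.375 of ERBB2 and 2.44 ± 0.0871 of EGFR (SD, n = 3). HBEGF was at 1.32 ± 0.260 CPM per kb, and AREG, BTC, NRG1 and EREG followed at 0.690 ± 0.149, 0.315 ± 0.0531, 0.277 ± 0.0436 and 0.123 ± 0.0214 CPM per kb. By RNA, this melanoma line is thus rich in the neuregulin receptor ERBB3 and in the EGFR ligand TGFA, with little of the other ligands. In wild-type cells TGFA made up 96.8% ± 0.506 of the summed per-kilobase level of the 6 ligands with DMSO and 96.7% ± 0.308 with JQ1 (SD, n = 3). In the knockout its share was 98.7% ± 0.165 with DMSO and 98.4% ± 0.0428 with JQ1. ERBB3 made up 88.1% ± 0.310 of the 3 receptors in wild-type DMSO and between 87.0% and 89.5% as the mean of each other group. The length used matters: with the median coding transcript of each gene, TGFA (364 CPM per kb) stood above ERBB3 (185 CPM per kb) in wild-type DMSO, since the TGFA transcripts run from 812 to 4310 bases.

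**Figure D1:**
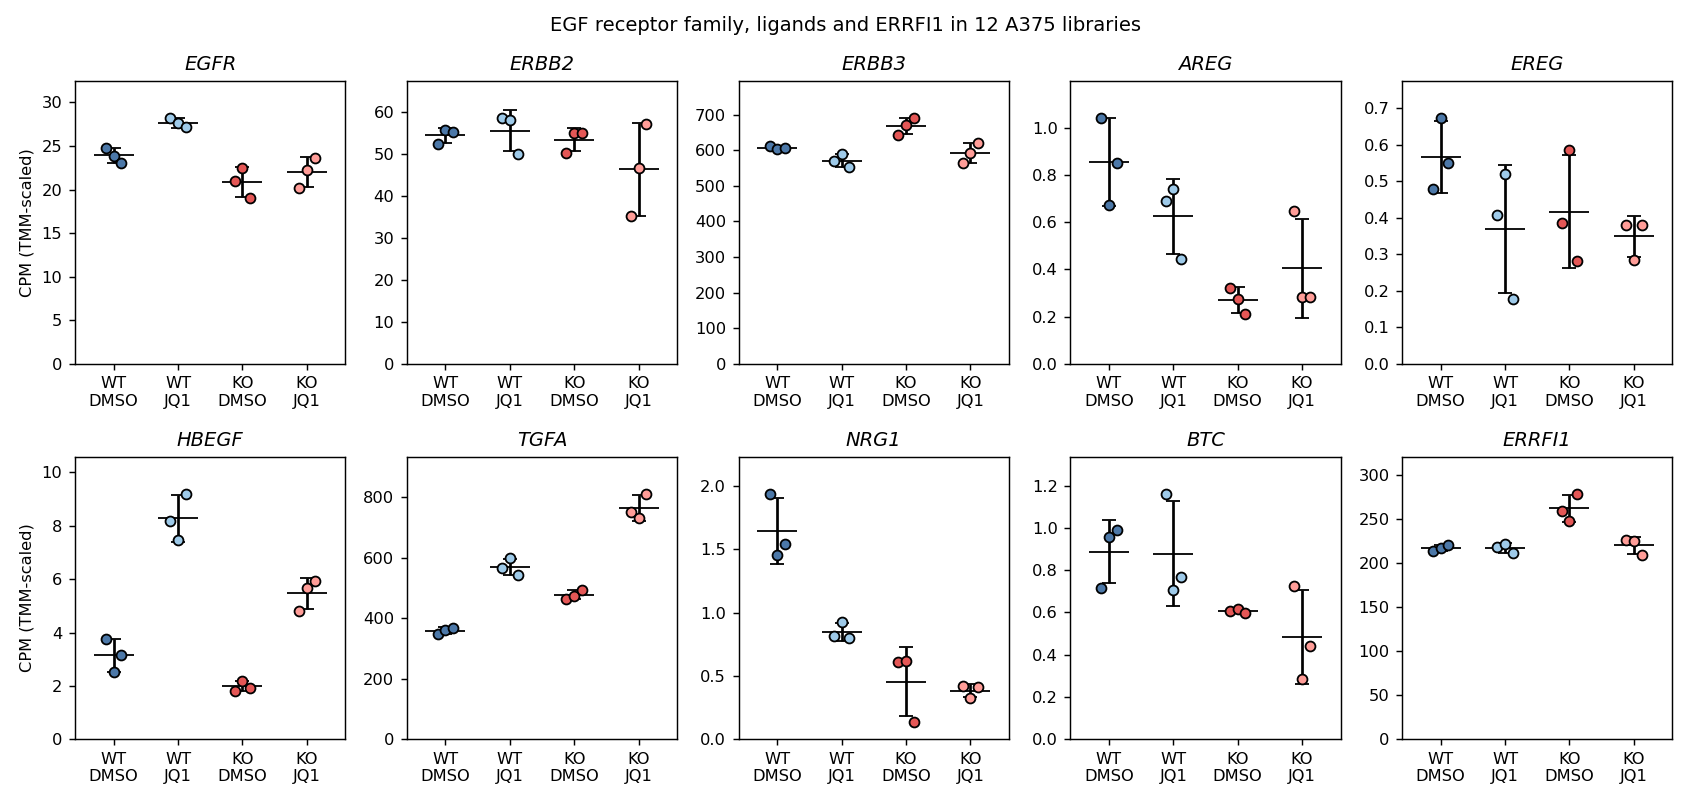
Level of each of the 10 genes (y axis, CPM on TMM-scaled library sizes, from 0) in the 4 groups (x axis; WT wild type, KO MAPKAPK2 knockout). Points are libraries, long bars the mean and whiskers the SD of 3 replicates. The 4 groups of HBEGF and of TGFA do not overlap with their neighbours, while the 4 groups of ERBB2 and of EREG do.

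JQ1 was first compared with DMSO in wild-type cells. Genes were called with edgeR's quasi-likelihood test at a Benjamini-Hochberg adjusted p under 0.05 over all genes tested, and fold changes are on the log2 scale with their standard error (SE). The ligands HBEGF and TGFA rose, NRG1 fell, and the 3 receptors and ERRFI1 were not called. These 3 calls among 10 members (2 higher, 1 lower) stand beside 33.1% of all genes tested (16.9% higher, 16.2% lower). In knockout cells HBEGF and TGFA rose as well, ERBB3 and ERRFI1 fell, which makes 4 calls beside 34.4% of all genes (16.7% higher, 17.8% lower). The replicates of the compared groups did not overlap for 5 members in wild type and for 4 in knockout, beside 50.4% and 42.3% of all genes. In bulk RNA, fewer cells with a transcript and less of it per cell cannot be told apart.

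HBEGF encodes heparin-binding EGF-like growth factor, a ligand of EGFR and ERBB4. It was at 3.76, 2.51 and 3.16 CPM in the wild-type DMSO libraries (126, 71 and 115 counts) and at 8.17, 7.46 and 9.20 CPM in the wild-type JQ1 libraries (260, 201 and 311 counts). All JQ1 libraries lay above all DMSO libraries, and the log2 fold change was 1.39 (SE 0.15, adjusted p 5.84e-06 by edgeR), a 2.62-fold rise. In knockout cells HBEGF went from 1.83, 2.20 and 1.93 CPM to 4.80, 5.68 and 5.92 CPM. The groups were again apart, with a log2 fold change of 1.46 (SE 0.16, edgeR adjusted p 6.96e-06), and without knockout JQ1 replicate 3 it was 1.40 (SE 0.18, adjusted p 1.65e-05).

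TGFA encodes transforming growth factor alpha, which activates EGFR. Wild-type libraries held 347, 362 and 368 CPM in DMSO and 566, 599 and 544 CPM in JQ1. The lowest JQ1 library was above the highest DMSO library, and TGFA rose 1.59-fold (log2 fold change 0.67, SE 0.05, edgeR adjusted p 4.13e-07). Knockout libraries held 465, 474 and 494 CPM in DMSO and 751, 730 and 811.5 CPM in JQ1. The rise was 1.60-fold (0.68, SE 0.05, adjusted p 2.86e-07), and 0.63 (SE 0.05, adjusted p 1.02e-07) without knockout JQ1 replicate 3. The HBEGF and TGFA rises were called in all 19 alternative analyses in both genotypes, with log2 fold changes of 1.26 to 1.55 for HBEGF and 0.54 to 0.71 for TGFA.

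NRG1, a neuregulin that binds ERBB3 and ERBB4, was scarce. It was at 1.94, 1.45 and 1.54 CPM in wild-type DMSO (65, 41 and 56 counts) and at 0.817, 0.928 and 0.799 CPM in wild-type JQ1 (26, 25 and 27 counts). The groups did not overlap, and NRG1 fell by 0.96 on the log2 scale (SE 0.31, edgeR adjusted p 0.0264). The call was lost without wild-type DMSO replicate 1 (adjusted p 0.107) or 3 (0.0517), without wild-type JQ1 replicate 1 (0.0798), 2 (0.0531) or 3 (0.0755), and with the authors' factors, which are scaling values per gene and library recovered from their normalized table (0.0952). In knockout cells NRG1 was already low, at 0.609, 0.618 and 0.140 CPM in DMSO (19, 18 and 4 counts) and 0.419, 0.325 and 0.412 CPM in JQ1, and these groups overlapped (log2 fold change -0.25, SE 0.41, adjusted p 0.692; -0.30 without knockout JQ1 replicate 3).

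AREG (amphiregulin), EREG (epiregulin) and BTC (betacellulin), the other EGFR ligands, were not called with JQ1 in either genotype. They held between 6 and 37 counts per library, and the intervals are wide. AREG was at 1.04, 0.673 and 0.852 CPM in wild-type DMSO and at 0.691, 0.742 and 0.444 CPM in wild-type JQ1, with overlapping groups and a log2 difference of -0.47 (95% interval -1.17 to 0.23). The difference in knockout was 0.57 (-0.32 to 1.46). EREG differed by -0.63 (-1.46 to 0.19) in wild type and -0.25 (-1.13 to 0.64) in knockout. For BTC the values were -0.0071 (-0.63 to 0.62) and -0.33 (-1.05 to 0.40). All 6 intervals held 0. That of AREG in knockout held a rise as large as that of TGFA, and those of AREG in wild type and of EREG and BTC in knockout, with EREG in wild type, held falls of that size. Changes of the size seen for TGFA, in the directions named, were therefore not excluded for these ligands at this depth. BTC in wild type was apart from this, as its interval ended short of that size on both sides. Without knockout JQ1 replicate 3 the differences in knockout were 0.79 for AREG, -0.32 for EREG and -0.26 for BTC, and 0 of these 3 was called.

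Among the receptors, EGFR was at 24.8, 23.9 and 23.1 CPM in wild-type DMSO and at 28.2, 27.6 and 27.1 CPM in wild-type JQ1. The libraries of the 2 treatments did not overlap, but the log2 fold change of 0.21 (SE 0.08, edgeR adjusted p 0.0529) just missed the threshold. It passed with DESeq2 (adjusted p 0.0267), with the authors' factors (0.0229), in a fit of these groups alone (0.00781), with RLE scaling, the size factors of DESeq2, (0.0368), and without knockout DMSO replicate 2 (0.0443) or 3 (0.0389) or knockout JQ1 replicate 1 (0.0396) or 3 (0.0227). The other 11 of the 19 alternatives left it uncalled. Over all 19 the change ran from 0.08 to 0.31 (adjusted p 0.00781 to 0.454). In knockout EGFR was at 21.0, 22.4 and 19.0 CPM in DMSO and 20.2, 22.2 and 23.6 CPM in JQ1, which overlap (0.08, SE 0.08, adjusted p 0.484; 0.03, adjusted p 0.849, without knockout JQ1 replicate 3).

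ERBB3 was at 612.5, 604 and 605.5 CPM in wild-type DMSO and at 570, 589 and 554 CPM in wild-type JQ1. The JQ1 libraries were all lower, yet the difference of -0.09 (SE 0.05, edgeR adjusted p 0.188) was not called. In knockout it went from 644, 669.5 and 691 CPM to 564, 592 and 621 CPM, without overlap, and fell by 0.17 (SE 0.05, adjusted p 0.0129), or by 0.21 (adjusted p 0.00213) without knockout JQ1 replicate 3. That call was lost without knockout DMSO replicate 3 (0.0592) or knockout JQ1 replicate 1 (0.0596), in a fit of these groups alone (0.0613) and with the authors' factors (0.117). The scaling bears on such small changes: with library totals only, which moved the median of all genes by about 0.13 downward with JQ1 in wild type, ERBB3 was lower by 0.22 there (adjusted p 0.00272).

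ERBB2 was at 52.5, 55.8 and 55.3 CPM in wild-type DMSO and 58.6, 58.2 and 50.0 CPM in wild-type JQ1, and the groups overlapped (0.03, SE 0.13, edgeR adjusted p 0.890). MIEN1, the opposite-strand gene whose exons overlap ERBB2, rose by 0.57 (adjusted p 8.16e-06), and its part in the ERBB2 values was not tested. In knockout DMSO, ERBB2 was at 50.4, 55.0 and 55.0 CPM. The knockout JQ1 libraries spread from 35.1 over 46.8 to 57.2 CPM, and the highest of them was replicate 3, the library that stood apart. With it the difference was -0.20 (SE 0.13, adjusted p 0.246), and without it ERBB2 fell by 0.38 (SE 0.10, adjusted p 0.00743). Leaving out 1 library at a time, this difference ran from -0.38 to -0.036 (edgeR adjusted p 0.00743 to 0.817), so it depended on single libraries.

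ERRFI1, a feedback inhibitor that is itself induced by EGFR and ERK signalling, was at 213.5, 217 and 221 CPM in wild-type DMSO and at 218.5, 222 and 211 CPM in wild-type JQ1, a difference of 0.0017 (95% interval -0.12 to 0.12). In knockout it went from 259, 248 and 279 CPM in DMSO to 226, 225 and 209 CPM in JQ1. All knockout JQ1 libraries lay below all knockout DMSO libraries, and ERRFI1 fell by 0.25 (SE 0.05, edgeR adjusted p 0.00231), or by 0.21 (adjusted p 0.00430) without knockout JQ1 replicate 3.

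**Figure D2:**
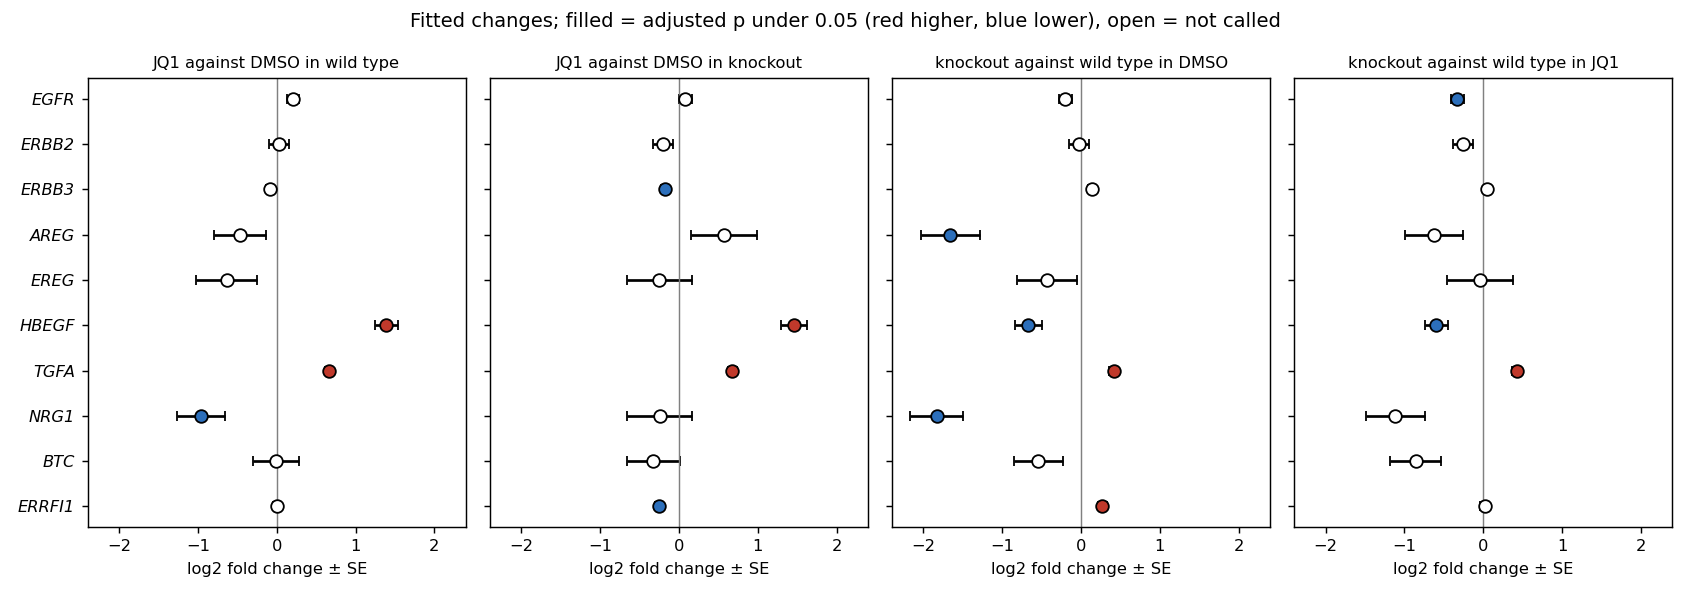
Fitted log2 fold change (x axis, points) with its SE (whiskers) of the 10 genes (y axis) in 4 comparisons of 3 against 3 libraries. Filled points passed an adjusted p of 0.05 (red higher, blue lower); HBEGF and TGFA are filled red in both JQ1 panels, and in the knockout panels TGFA is red while HBEGF is blue.

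The knockout was then compared with wild type. In DMSO the ligands NRG1, AREG and HBEGF were lower in the knockout, and TGFA and ERRFI1 were higher. These 5 of 10 members (2 higher, 3 lower) stand beside 7.92% of all genes tested (3.47% higher, 4.44% lower). Under JQ1, HBEGF and EGFR were lower and TGFA was higher, 3 of 10 members beside 8.57% of all genes (3.01% higher, 5.56% lower). The replicates of the genotypes did not overlap for 8 members in DMSO and for 4 in JQ1, beside 29.6% and 23.1% of all genes. Both comparisons share libraries with the JQ1 comparisons above, so the values are set side by side and not correlated.

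TGFA was higher in the knockout without drug, with 465 to 494 CPM against 347 to 368 CPM. The groups did not overlap, and the log2 difference was 0.41 (SE 0.05, edgeR adjusted p 2.13e-04). Under JQ1 the knockout libraries, at 730 to 811.5 CPM, again lay above the wild-type libraries, at 544 to 599 CPM (0.42, SE 0.05, adjusted p 1.37e-04; 0.38, adjusted p 1.08e-04, without knockout JQ1 replicate 3). Both calls held in all 19 alternatives, between 0.37 and 0.49 in DMSO and between 0.38 and 0.46 in JQ1. Cells with both the knockout and JQ1 had the most TGFA RNA of the 4 groups, 2.13-fold the wild-type DMSO mean.

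HBEGF differed in the other direction. The knockout DMSO libraries, at 1.83 to 2.20 CPM, lay below the wild-type DMSO libraries, at 2.51 to 3.76 CPM, and HBEGF was lower by -0.67 (SE 0.17, edgeR adjusted p 0.0222). The call was lost without replicate 1 (adjusted p 0.127) or 3 (0.0683) of wild-type DMSO, or replicate 1 (0.0912) or 3 (0.0853) of knockout DMSO. Under JQ1 the knockout libraries, at 4.80 to 5.92 CPM, were all below the wild-type libraries, at 7.46 to 9.20 CPM. The difference was -0.60 (SE 0.14, adjusted p 0.0174), and -0.66 (adjusted p 0.0142) without knockout JQ1 replicate 3; it was lost without knockout JQ1 replicate 1 (0.0736) or wild-type JQ1 replicate 3 (0.0818).

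NRG1 and AREG were lower in the knockout in DMSO. NRG1 was at 4 to 19 counts in knockout and 41 to 65 counts in wild type, a log2 difference of -1.83 (SE 0.34, edgeR adjusted p 0.00272). Under JQ1 its groups were also apart, 8 to 13 counts against 25 to 27, but the difference of -1.12 (SE 0.37, adjusted p 0.0855) was not called; it passed with no filter on low counts (0.0401) and without knockout DMSO replicate 3 (0.0139). Without knockout JQ1 replicate 3 the NRG1 difference was -1.17 (adjusted p 0.112). AREG was at 0.321, 0.275 and 0.211 CPM in knockout DMSO (10, 8 and 6 counts), below the 19 to 35 counts of wild type, with a difference of -1.66 (SE 0.37, adjusted p 0.0112). That call was lost without replicate 1 of wild-type DMSO (0.0610) or replicate 3 of knockout DMSO (0.0613). Under JQ1, AREG was at 0.647, 0.284 and 0.285 CPM in the knockout, overlapping wild type (-0.62, SE 0.37, adjusted p 0.384; -0.40, adjusted p 0.620, without knockout JQ1 replicate 3).

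EREG and BTC were not called between genotypes with all libraries. EREG, the neighbour of AREG, was at 0.385, 0.584 and 0.281 CPM in knockout DMSO and at 0.477, 0.673 and 0.550 CPM in wild-type DMSO, a difference of -0.43 (95% interval -1.24 to 0.38). BTC was lower by -0.54 (-1.20 to 0.12) in DMSO and by -0.86 (-1.55 to -0.17, edgeR adjusted p 0.130) in JQ1. The BTC difference in JQ1 was -0.79 (adjusted p 0.218) without knockout JQ1 replicate 3, and it was called without replicate 1 of that group (-1.24, adjusted p 0.0453). Under JQ1, EREG differed by -0.04 (adjusted p 0.972), and by -0.12 (adjusted p 0.930) without knockout JQ1 replicate 3. For BTC the DMSO groups did not overlap, with 17 to 19 counts in knockout and 24 to 36 in wild type.

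EGFR was lower in the knockout under JQ1, at 20.2 to 23.6 CPM against 27.1 to 28.2 CPM (-0.33, SE 0.08, edgeR adjusted p 0.0173; -0.39, adjusted p 0.00504, without knockout JQ1 replicate 3). That call was lost in a fit of these groups alone (0.0723), with the authors' factors (0.0520), and without knockout JQ1 replicate 1 (0.0737) or wild-type JQ1 replicate 1 (0.0671) or 2 (0.0593). In DMSO the EGFR groups were also apart, at 19.0 to 22.4 against 23.1 to 24.8 CPM, with -0.20 (SE 0.08, adjusted p 0.167). Over the 19 alternatives that EGFR difference ran from -0.25 to -0.0031 (adjusted p 0.0782 to 0.992). ERBB3 was higher by 0.14 in knockout DMSO (SE 0.05, adjusted p 0.119) and the groups did not overlap. That difference was called with DESeq2 (adjusted p 0.0296), in a fit of these groups alone (0.0494) and without knockout JQ1 replicate 3 (0.0370). Under JQ1, ERBB3 differed by 0.05 (adjusted p 0.620), or 0.02 (adjusted p 0.881) without that library. ERBB2 differed by -0.03 (95% interval -0.30 to 0.24) in DMSO and by -0.26 (adjusted p 0.266) in JQ1, or by -0.44 (adjusted p 0.00958) without knockout JQ1 replicate 3. With all libraries but no low-count filter it was also called (-0.28, adjusted p 0.0414). Leaving out 1 library at a time, the ERBB2 difference in JQ1 ran from -0.44 to -0.094 (edgeR adjusted p 0.00958 to 0.639).

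ERRFI1 was higher in knockout DMSO, at 248 to 279 CPM against 213.5 to 221 CPM, without overlap (0.27, SE 0.05, edgeR adjusted p 0.00555). Under JQ1 the genotypes overlapped, at 209 to 226 and 211 to 222 CPM (0.02, 95% interval -0.10 to 0.14; 0.05, adjusted p 0.599, without knockout JQ1 replicate 3). The knockout DMSO group thus stood above the other 3 groups, which overlapped one another.

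Whether the JQ1 response itself differed between genotypes was tested with the interaction term. By the edgeR test 0 of the 10 members passed, beside 0.134% of all genes (0.0323% higher, 0.101% lower); 1 member had an unadjusted p under 0.05, and DESeq2 likewise called 0 with 1 unadjusted. That member was ERRFI1, with a response lower by -0.25 in knockout (95% interval -0.42 to -0.09, unadjusted p 0.00546, adjusted p 0.332). The interval of the difference was -0.15 to 0.18 for TGFA and -0.40 to 0.54 for HBEGF. For the scarce ligands it was wide, -0.10 to 2.17 for AREG and -0.39 to 1.81 for NRG1. Without knockout JQ1 replicate 3, again 0 of 10 passed. The ERRFI1 difference was then -0.22 (adjusted p 0.193), that of AREG 1.26 (adjusted p 0.347), and that of ERBB2 went from -0.23 to -0.41 (adjusted p 0.196). The NRG1 call in wild type and its absence in knockout, and the reverse for ERBB3 and ERRFI1, are therefore not shown to differ between genotypes.

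**Figure D3:**
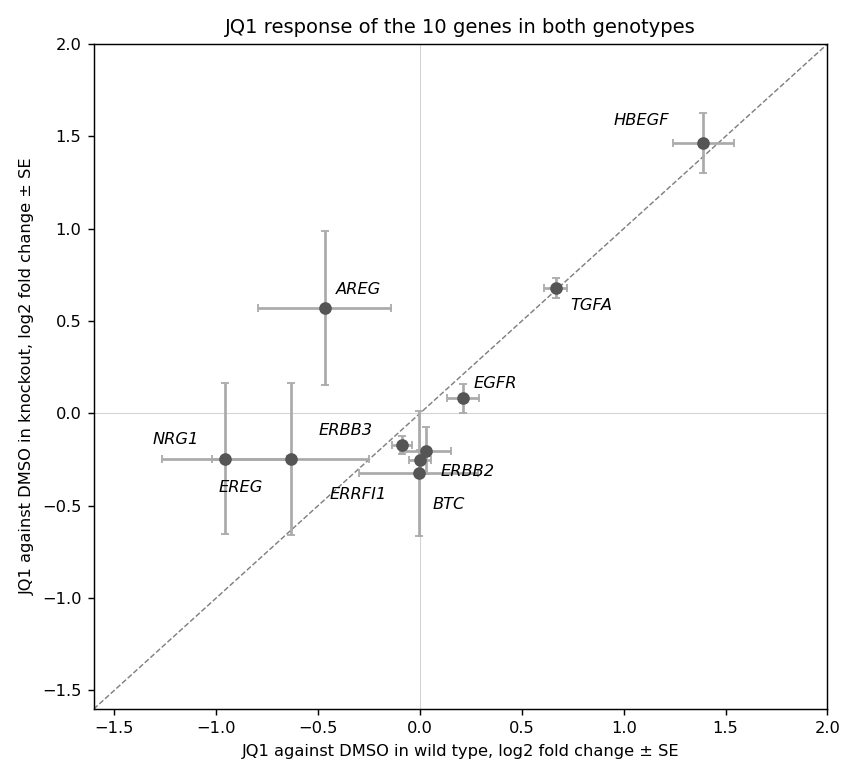
JQ1 response in wild type (x axis) against knockout (y axis), log2 fold change with SE in both directions, for the 10 genes; the dashed line marks equal responses. HBEGF (1.39 and 1.46) and TGFA (0.67 and 0.68) lie on the line at the upper right, and AREG (-0.47 and 0.57) lies farthest from it, with wide error bars.

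The ranking of the groups differed by gene. TGFA ran from knockout JQ1 over wild-type JQ1 and knockout DMSO down to wild-type DMSO, with each neighbouring pair apart. HBEGF ran from wild-type JQ1 over knockout JQ1 and wild-type DMSO to knockout DMSO, also with all neighbours apart, a 4.17-fold span of means. NRG1 ran from wild-type DMSO over wild-type JQ1 to the knockout groups, which overlapped each other, with a 4.27-fold span. The span was 1.33-fold for EGFR, 1.20-fold for ERBB2, 1.17-fold for ERBB3 and 1.21-fold for ERRFI1.

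The authors' second table divides each count by a factor for the gene and library. Relative to the library's median factor, HBEGF, EREG and BTC lay within 0.992 to 1.003 in all libraries, and ERBB2, ERBB3, TGFA and ERRFI1 within 0.942 to 1.036. EGFR ranged from 0.887 to 1.095, with means of 1.06 in wild-type DMSO and 0.940 in knockout DMSO, and NRG1 from 0.829 to 1.225. EGFR and NRG1 were thus the members whose levels depended most on which of the authors' tables is used. What the factor corrects for is not given in the sources used here.

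The genes whose pattern was most like that of a member were sought among 11246 other genes whose mean was 5 CPM or more, by Pearson's r of log2 CPM over the 12 libraries. The libraries share the same 4 groups, so r is a description. For TGFA these were ADAM15 (r = 0.996), MAF (0.993) and NRP2 (0.989). For HBEGF they were TBX10 (0.987), AC109326.1 (0.982) and RHOB (0.981). TERC (0.911), NVL (0.892) and ADSS (0.885) were nearest to NRG1, and KDM1A (0.951), PLCE1 (0.939) and UBE2L6 (0.920) to ERRFI1.

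Of 6 further members, ERBB4, EGF and NRG2 passed the filter on low counts, and EPGN, NRG3 and NRG4 held at most 5 counts in any library. NRG2, a neuregulin, was the most abundant of the 3 in CPM, at 6.02 to 7.01 CPM in wild-type DMSO and 7.60 to 9.89 CPM in wild-type JQ1 (198 to 315 counts). In wild-type DMSO its CPM also lay above that of HBEGF, at 2.51 to 3.76 CPM. EGF, the founding ligand, was at 1.49 to 1.88 CPM in wild-type DMSO and 0.237 to 0.705 CPM in wild-type JQ1, and fell by 1.88 on the log2 scale (SE 0.33, edgeR adjusted p 4.47e-04). In knockout it fell by 1.77 (adjusted p 0.00168). ERBB4, the fourth receptor, fell with JQ1 in knockout (-0.77, SE 0.26, adjusted p 0.0300), and NRG2 rose there (0.83, SE 0.21, adjusted p 0.00702). In wild type ERBB4 differed by -0.46 (adjusted p 0.194) and NRG2 by 0.47 (adjusted p 0.0943). Over all genes, 33.1% were called with JQ1 in wild type and 34.4% in knockout. Without knockout JQ1 replicate 3, 1 rather than 2 of these 3 genes fell with JQ1 in knockout. Over all genes, 3867 rather than 3856 then fell. None of the 3 was called between genotypes, beside 7.92% of all genes in DMSO and 8.57% in JQ1.

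Of 10 genes that process the ligands, 2 rose and 1 fell with JQ1 in each genotype, with a median log2 fold change of 0.05 in wild type and -0.02 in knockout, beside -0.03 and -0.0035 over all genes. That is 3 of 10 genes called in each genotype, beside 33.1% and 34.4% of all genes. Without knockout JQ1 replicate 3 it was 2 rather than 1 that fell in knockout, beside 3867 rather than 3856 of all genes. RHBDF1, which encodes the inactive rhomboid iRhom1 that escorts ADAM17, rose by 0.79 in wild type (SE 0.10, edgeR adjusted p 2.57e-05) and by 0.79 in knockout (adjusted p 2.24e-05). BACE1, a protease that cleaves NRG1, rose by 0.48 (adjusted p 1.97e-04) and 0.72 (adjusted p 4.85e-06) and was lower in the knockout by -0.54 in DMSO (adjusted p 3.88e-04) and -0.30 in JQ1 (adjusted p 0.0217). RHBDL2, a rhomboid protease, fell by 0.89 (adjusted p 0.0295) and 1.14 (adjusted p 0.0101). Between genotypes in DMSO, BACE1 and ADAM12 (-0.61, adjusted p 0.0106) were lower in the knockout and ADAM19 was higher (0.51, adjusted p 0.00638). ADAM17, the main sheddase of TGFA, HBEGF and AREG, was not called, at 68.2 ± 3.15 CPM in wild-type DMSO and 69.3 ± 0.931 in wild-type JQ1 (SD, n = 3; log2 difference 0.02, SE 0.06). ADAM10 was not called either (-0.11, SE 0.10).

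Among 15 adaptors and effectors of the receptors, 6 rose and 2 fell with JQ1 in wild type (median 0.15), and 6 rose and 4 fell in knockout (median 0.06). Over all genes 33.1% and 34.4% were called, with medians of -0.03 and -0.0035. PIK3R1, a regulatory subunit of PI3-kinase, rose by 0.72 (edgeR adjusted p 1.95e-06) and 0.53 (adjusted p 2.95e-05) in wild type and knockout, and STAT3 by 0.45 and 0.33. The kinase gene SRC fell by 0.77 (adjusted p 4.39e-05) and 0.99 (adjusted p 4.36e-06). Between genotypes in DMSO, STAT3 alone of the 15 was called, higher in the knockout by 0.40 (adjusted p 0.00138). Over all genes 7.92% were called in that comparison (3.47% higher, 4.44% lower). Without knockout JQ1 replicate 3, which also enters the estimate of spread, 2 were higher and 1 lower there. Over all genes, 1276 were then higher and 1374 lower, rather than 754 and 964. With library totals only, 2 rather than 6 adaptors rose with JQ1 in wild type, beside 2298 rather than 3665 of all genes.

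The list labelled negative regulators held 13 tested genes. Whether each of them restrains the receptors was not tested. With JQ1, 7 rose and 2 fell in wild type (median 0.29), and 6 rose and 2 fell in knockout (median 0.21). Over all genes, 16.9% rose and 16.2% fell in wild type (median -0.03), and 16.7% and 17.8% in knockout (median -0.0035). LRIG3, a membrane protein that acts on ERBB receptors, rose by 0.64 (edgeR adjusted p 8.76e-07) and 0.52 (adjusted p 5.91e-06). STUB1 rose by 0.63 and 0.57, UBASH3B by 0.56 and 0.38, and RNF41, a ubiquitin ligase that targets ERBB3, by 0.31 and 0.23, with adjusted p of 0.00286 or less for these 3 in both genotypes. PTPN12, a phosphatase, fell by 0.31 (adjusted p 0.00302) and 0.47 (adjusted p 1.06e-04), and CBLB, a ubiquitin ligase, by 0.22 and 0.37. Under library totals only, 4 rather than 2 fell with JQ1 in knockout, beside 5250 rather than 3856 of all genes. In knockout DMSO, LRIG3 (0.26, adjusted p 0.00882) and UBASH3B (0.28, adjusted p 0.0102) were higher than in wild type.

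Melanoma state genes were followed because SOX10 and FOXD3 are known regulators of ERBB3 and because low MITF with high AXL and EGFR marks a dedifferentiated state. With JQ1, 3 of the 10 genes rose and 3 fell in wild type (median -0.09), and 3 rose and 2 fell in knockout (median 0.06), beside 33.1% and 34.4% of all genes called. SOX10 rose by 0.37 with JQ1 in wild type (edgeR adjusted p 0.0189) and by 0.36 in knockout (adjusted p 0.0190). FOXD3 fell by 0.89 in wild type (adjusted p 5.85e-04) and differed by -0.43 in knockout (adjusted p 0.0614). The receptor gene AXL rose by 0.92 (adjusted p 8.35e-07) and 1.01 (adjusted p 2.94e-07), and JUN by 1.08 and 1.53. In knockout DMSO, 5 of the 10 genes were lower than in wild type and 0 were higher (median -0.35), beside 4.44% lower and 3.47% higher over all genes (median -0.0049). Among them MITF was lower by -0.58 (adjusted p 3.23e-04), NGFR by -2.24 (adjusted p 1.06e-06) and AXL by -0.32 (adjusted p 0.0224). MITF and AXL, which go opposite ways in the dedifferentiated state, were thus both lower. The list mixes such genes, so its counts and medians do not place the cells in a state. The part of these genes in the levels of the members was not tested.

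**Figure D4:**
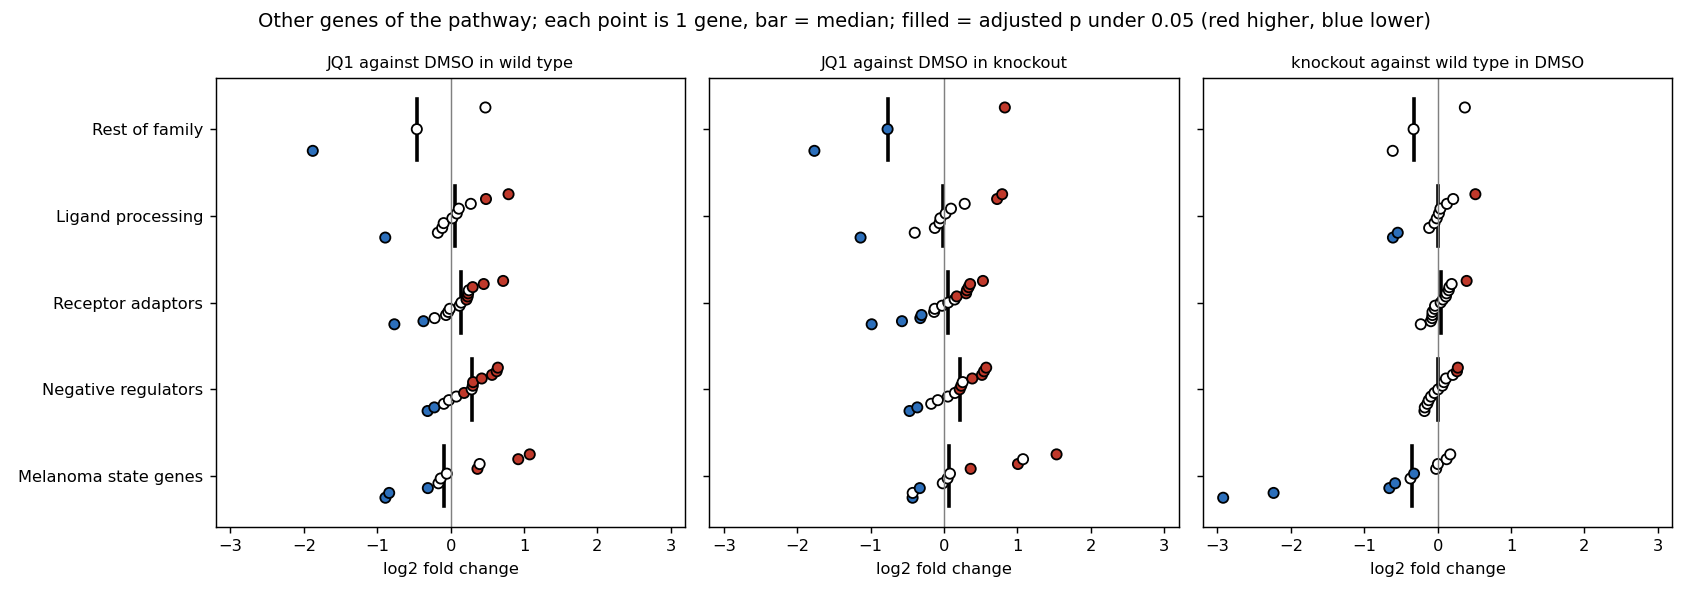
Log2 fold change (x axis) of each tested gene in 5 lists (y axis) for JQ1 in wild type, JQ1 in knockout and knockout in DMSO. Each point is 1 gene, black bars are list medians, and filled points passed an adjusted p of 0.05 (red higher, blue lower). The medians of the 13 genes listed as negative regulators lie at 0.29 and 0.21 in the JQ1 panels. That of the melanoma state genes lies at -0.35 in the knockout panel.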

How the data were processed

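Processed tables were used, not reads. The submitters' processing notes name Trim Galore, cutadapt, FastQC, MultiQC, kallisto, DESeq2 and GRCh38.p10, with no versions or roles; per the labels' protocols, libraries were rRNA-depleted and directional. The authors deposited estimated counts per symbol, which were rounded here because the fit needs whole numbers, and a normalized signal for 32828 genes, each count divided by a factor per gene and library, used only as an alternative offset.

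Genes passing filterByExpr were fitted with edgeR 4.0.16 (R 4.3.3), TMM scaling, a term per group and all 12 libraries, with 5 contrasts. CPM of the text are unlogged. DESeq2 1.42.0 was an alternative. On simulated counts for JQ1 in wild type (21181 genes), 67, 67 and 66 genes were changed 1.5-, 2- and 4-fold. The edgeR step recovered 68.7%, 97.0% and 100% of them, with 8 false calls. The real comparison called 33.1% of genes, a far larger share, so these rates may not carry over to it. The rule named all 10 members, up to 4 called genes per list and contrast with the smallest adjusted p, and 3 most alike genes for the 4 members with the largest F; ADAM17, ADAM10, RNF41 and others outside it were named after their values were seen. Alternatives were RLE scaling, library totals only, no low-count filter, only the groups compared, DESeq2, the authors' factors as offsets, a replicate block and leaving out each library; list counts under library totals and without knockout JQ1 replicate 3 were added after seeing the data. Annotation release and strand use in counting are not given in the sources used here. Members and lists were chosen with earlier results of these data known.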

Additional observations from a re-analysis of the deposited data

How the results depend on the processing

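HBEGF and TGFA were called with JQ1 in both genotypes under all 19 alternatives, as was TGFA between genotypes. The number of members called was 3, 4, 5, 3 and 0 in the 5 contrasts (JQ1 in wild type, JQ1 in knockout, knockout in DMSO, knockout in JQ1, interaction). Leaving out 1 library at a time gave 2 to 4, 3 to 5, 3 to 6, 2 to 4 and 0; knockout in DMSO fell to 3 without replicate 1 of wild-type DMSO or replicate 3 of knockout DMSO. With no low-count filter, 5 members were called for knockout in JQ1. The replicate numbers did not pair the libraries (18 same-number correlations, none above 0.0786; 1 library correlated best with its own number). With the replicate block, 3, 4, 5, 3 and 0 members and 6789, 7136, 1487, 1569 and 21 genes were called.

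Signs changed only among values not called either way; the cause was not tested. With JQ1 in wild type, BTC was 0.0063 with RLE scaling, 0.0032 with no filter, 0.0124 with only the groups compared, 0.0053 with DESeq2 and 0.0076 with the authors' factors. With library totals only, ERBB2 was -0.10 and ERRFI1 -0.13 there, EGFR was -0.035 with JQ1 in knockout (-0.019 with the authors' factors) and ERRFI1 -0.013 for knockout in JQ1. EREG was 0.0048 for knockout in JQ1 with the replicate block. The TGFA interaction was -0.0047 with no filter and -0.031 with the authors' factors. With 1 library left out, ranges that crossed 0 were, for JQ1 in wild type, ERBB2 -0.0090 to 0.10, BTC -0.26 to 0.12 and ERRFI1 -0.012 to 0.024; for JQ1 in knockout, EREG -0.45 to 0.061 and NRG1 -0.66 to 0.024; for knockout in DMSO, ERBB2 -0.0455 to 0.023; for knockout in JQ1, EREG -0.39 to 0.27 and ERRFI1 -0.0027 to 0.053; and for the interaction, HBEGF -0.0795 to 0.20 and TGFA -0.0335 to 0.0505.

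Over the whole table, knockout in DMSO called 1718 genes, against 2619 with only the groups compared and 1092 to 2650 with 1 library left out. Knockout in JQ1 called 1860, against 922 and 1223 to 2331. The interaction called 29, against 236 with no filter, 139 with DESeq2 and 8 to 88 with 1 library left out. Scaling to library totals alone gave 2298 higher and 5368 lower calls with JQ1 in wild type (3665 and 3522 with TMM), 2409 and 5250 with JQ1 in knockout (3616 and 3856), and 516 and 1158 for knockout in DMSO (754 and 964). Counts of 4 to 65 per library limit AREG, EREG, BTC and NRG1.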
